A study of Homo sapiens with 11 samples.

Results

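The ABO, fucosyl and other glycan transferases here are 10 genes listed under blood group and Lewis antigen synthesis, of 58735 genes counted per library. They are ABO, FUT1, FUT2, FUT3, FUT4, FUT8, B3GNT3, B3GNT7, ST6GAL1 and B4GALT1, and each symbol matched 1 Ensembl identifier of the count tables. The list was drawn up with earlier results of these data known. ABO and B3GNT7 were selected on their measured siRNA responses and levels in the lines, so their values are given as a description without a p-value. The other 8 members were listed for their role in glycan synthesis. On GRCh38, ABO lies at chr9:133250401-133275219 and B4GALT1 at chr9:33104082-33167356, both on the minus strand. FUT1 (chr19:48748011-48755390, minus) and FUT2 (chr19:48695971-48705950, plus) lie near each other, and FUT3 (chr19:5842888-5851474, minus) and B3GNT3 (chr19:17794828-17813082, plus) are on the same chromosome. FUT4 lies at chr11:94543840-94549898, FUT8 at chr14:65410592-65744121, B3GNT7 at chr2:231395543-231401164 and ST6GAL1 at chr3:186930485-187078553, all on the plus strand.

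The libraries were poly(A) RNA from AsPC-1 and PANC-1, established human pancreatic cancer cell lines. The groups were AsPC-1 with small interfering RNA (siRNA) against MYEOV (n = 3), AsPC-1 control (n = 2), PANC-1 with MYEOV siRNA (n = 3) and PANC-1 control (n = 3). RNA was prepared 48 hours after siRNA transfection with a lipid reagent. The lines were grown in different basal media with fetal bovine serum, so line, medium and any batch cannot be told apart in a comparison between the lines. The labels call the controls WT or without treatment, whereas the protocol mentions a negative control siRNA, and the labels leave unsettled which the control cells received. With untreated controls, effects of the MYEOV siRNA and of transfection cannot be told apart. A pair of MYEOV siRNAs is named, and the sources used here do not say which library received which. Since no label speaks of separate cultures, the p-values reflect variation among the libraries alone, and part of it may be technical.

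Most enzymes of these genes build the outer sugars of glycoproteins and glycolipids in the Golgi, whereas FUT8 acts on the core of N-glycans. A galactose and N-acetylglucosamine chain is extended first, fucosyltransferases then add fucose to make the H and Lewis structures, and the ABO transferase adds a last sugar to H. The sialylated Lewis a structure is the CA19-9 antigen measured in blood in pancreatic cancer, and secretory epithelia such as pancreatic ducts carry ABH antigens in their mucus and on their surface.

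Each library held 12113093 to 15066456 counts on genes, with 22050 to 24025 genes detected. MYEOV stood at 35.9% of control in AsPC-1 siRNA libraries and at 54.4% in PANC-1 siRNA libraries. All 7 ductal markers had counts in every library, with a summed level of 18500 to 19000 CPM in AsPC-1 siRNA, 18100 to 18300 in AsPC-1 control, 1960 to 2000 in PANC-1 siRNA and 2290 to 2560 in PANC-1 control libraries. The CPM given throughout carry TMM factors computed over all 11 libraries. The 4 mesenchymal markers summed to 851 to 997 CPM in AsPC-1 libraries, mostly VIM and with CDH2 at 0, and to 2030 to 2150 CPM in PANC-1 libraries. The 5 leukocyte markers summed to 30 to 32.7 CPM in AsPC-1, mostly LYZ and with PTPRC and CD3E at 0, and to 0.551 to 1.5 CPM in PANC-1. PANC-1 control replicate 2 stood apart from its group (chi-square over degrees of freedom 5.47 and 4.47 against the other controls, and 2.57 between those).

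The lines differed in which members they expressed. Per kilobase of exon, B3GNT3 was the most abundant member in AsPC-1 libraries and B3GNT7 in PANC-1 libraries, with B4GALT1 second in both. In AsPC-1 control libraries the order ran from B3GNT3 (73.0 CPM per kb) and B4GALT1 (31.4) through ABO (4.05), FUT2 (4.05), FUT4 (2.09) and FUT8 (1.199) to B3GNT7 (0.153). The ranges of ABO and FUT2 overlapped, and the other neighbours in that order down to B3GNT7 did not. In PANC-1 control libraries the order ran from B3GNT7 (38.65 CPM per kb) and B4GALT1 (20.5) through FUT8 (6.71), FUT4 (2.46) and ST6GAL1 (2.35) to B3GNT3 (0.203) and FUT2 (0.181). There FUT4 and ST6GAL1 overlapped, as did B3GNT3 and FUT2. FUT1 and FUT3 were near 0 in both lines, ST6GAL1 in AsPC-1 and ABO in PANC-1.

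**Figure D1:**
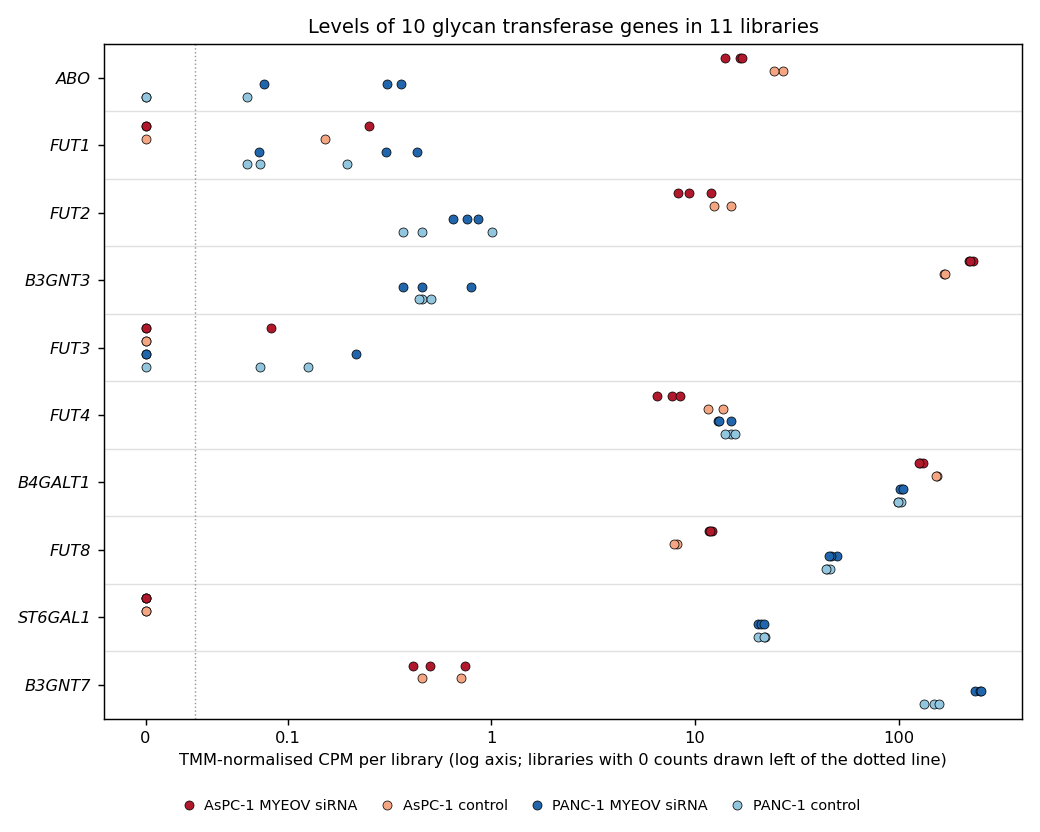
TMM-normalised CPM of the 10 members in every library on a log axis, 1 point per library, with libraries at 0 counts drawn left of the dotted line. B3GNT3, ABO and FUT2 points of AsPC-1 lie right of all PANC-1 points, and B3GNT7, ST6GAL1 and FUT8 points lie the other way round.

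The first comparison set the control libraries of AsPC-1 against those of PANC-1. The edgeR quasi-likelihood test, with Benjamini-Hochberg adjustment over all genes and a threshold of 0.05 for a call, called 76.4% of 16182 genes, 36.1% higher and 40.3% lower in AsPC-1. Of the 8 members other than ABO and B3GNT7, 6 passed the filter on low counts, and 3 were higher and 2 lower in AsPC-1, a share read against that background. B3GNT3 and ST6GAL1 passed the filter only through the line where they were high. The filter thus favoured their calls, and their p-values are left out. Without PANC-1 control replicate 2 the counts were again 3 higher and 2 lower. Of the 7 ductal markers 5 were higher in AsPC-1, between KRT19 at 5.74-fold and EPCAM at 169-fold, MUC1 was lower at 77.7% of its PANC-1 level and KRT7 was not called (edgeR adjusted p = 1.96e-15, 1.34e-17, 0.00233 and 0.775), and the part that such differences between the lines have in the members' levels was not tested. In bulk libraries fewer cells of a type and less RNA per cell cannot be told apart.

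Among the enzymes of chain extension, the galactosyltransferase B4GALT1 makes the N-acetyllactosamine unit, B3GNT3 adds N-acetylglucosamine to extend core 1 O-glycans, and B3GNT7 extends keratan sulfate-type chains. B3GNT3 had 168 and 169 CPM in AsPC-1 control libraries, against 0.456, 0.440 and 0.505 CPM in PANC-1 control libraries. The AsPC-1 controls lay above all PANC-1 controls, by 358-fold (log2 fold change 8.48, SE 0.12). B3GNT7, chosen for its behaviour in these lines, had 0.455 and 0.708 CPM in AsPC-1 control libraries and 150, 134 and 158 CPM in PANC-1 control libraries. Its AsPC-1 controls held 14 counts in sum and its PANC-1 controls 6628, so that it was 259-fold higher in PANC-1 (95% interval 154 to 473, from counting error only). B4GALT1 had 155 and 152 CPM in AsPC-1 control libraries and 99.1, 103 and 99.6 CPM in PANC-1 control libraries, without overlap and 1.55-fold higher in AsPC-1 (edgeR adjusted p = 1.45e-07; log2 fold change 0.64, SE 0.06).

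The promoters of the pair with opposite line restriction, B3GNT7 and B3GNT3, are shown because their levels set the lines apart most plainly among the extension enzymes. Both come from the RefSeq table on GRCh38.p14, 250 bases before to 50 after the annotated start on the plus strand, with each CG in capitals. The letters searched were CG, which reads the same on both strands. The B3GNT7 window (chr2:231395460-231395759) holds 37, a number reached by 11.3% of 35116 promoter windows of that length. The B3GNT3 window (chr19:17794888-17795187) holds 19, a number reached by 42.9% of windows, whose median is 14. Of the members, 9 had a promoter entry.
B3GNT7: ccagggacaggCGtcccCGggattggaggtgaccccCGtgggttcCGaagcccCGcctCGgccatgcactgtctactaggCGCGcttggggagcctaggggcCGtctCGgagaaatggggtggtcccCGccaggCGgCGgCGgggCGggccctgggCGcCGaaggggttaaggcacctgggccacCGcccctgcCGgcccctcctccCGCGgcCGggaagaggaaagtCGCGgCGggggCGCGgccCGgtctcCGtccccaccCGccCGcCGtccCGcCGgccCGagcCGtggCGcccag
B3GNT3: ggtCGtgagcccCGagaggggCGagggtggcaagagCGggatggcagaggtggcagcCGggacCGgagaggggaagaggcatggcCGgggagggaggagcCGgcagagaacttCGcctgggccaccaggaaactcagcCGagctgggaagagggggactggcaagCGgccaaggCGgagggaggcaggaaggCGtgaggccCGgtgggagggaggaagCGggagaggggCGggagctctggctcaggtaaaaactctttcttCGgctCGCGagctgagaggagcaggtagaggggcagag

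The fucosyltransferases of the H antigen are FUT2, the secretor gene of epithelia, and FUT1, the gene of red cells and vessels. FUT2 had 12.4 and 14.95 CPM in AsPC-1 control libraries, against 0.456, 0.367 and 1.01 CPM in PANC-1 control libraries. Its groups did not overlap, and it was 21.9-fold higher in AsPC-1 (edgeR adjusted p = 3.2e-10; log2 fold change 4.46, SE 0.25). FUT1 had 2 and 0 counts in AsPC-1 control libraries and 3, 1 and 1 counts in PANC-1 control libraries, too few to be tested. ABO, which turns H into A or B, had 358 and 276 counts in AsPC-1 control libraries and 0, 0 and 1 counts in PANC-1 control libraries. As a description, its level was 1160-fold higher in AsPC-1, with a counting interval of 208 to 45900 that rests on a single PANC-1 count.

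FUT3, the Lewis gene, which fucosylates both chain types and completes CA19-9, had 0 counts in both AsPC-1 control libraries and 0, 1 and 2 counts in PANC-1 control libraries. It was not tested, and 4.06% of its 150-base windows are shared with other genes, FUT5 and FUT6 among them. FUT4, which makes Lewis x, had 11.6 and 13.7 CPM in AsPC-1 control libraries and 14.97, 15.7 and 14.1 CPM in PANC-1 control libraries. The AsPC-1 controls lay below the PANC-1 controls, but the difference did not pass the threshold (edgeR adjusted p = 0.119; log2 fold change -0.22, SE 0.12). With upper-quartile scaling it did (-0.30, edgeR adjusted p = 0.0354).

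FUT8 adds core fucose to N-glycans, and ST6GAL1 caps their galactose with sialic acid. FUT8 had 8.19 and 7.88 CPM in AsPC-1 control libraries, against 44.5, 46.2 and 44.2 CPM in PANC-1 control libraries. It stood at 18.2% of the PANC-1 level with no overlap (edgeR adjusted p = 8.49e-12; log2 fold change -2.46, SE 0.10). ST6GAL1 had 0 counts in every AsPC-1 library, against 22.1, 20.4 and 21.9 CPM in PANC-1 control libraries. Set against a floor of 3 counts over the AsPC-1 controls it was at least 176-fold lower in AsPC-1. The same floor over the siRNA libraries gave at least 255-fold lower.

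**Figure D2:**
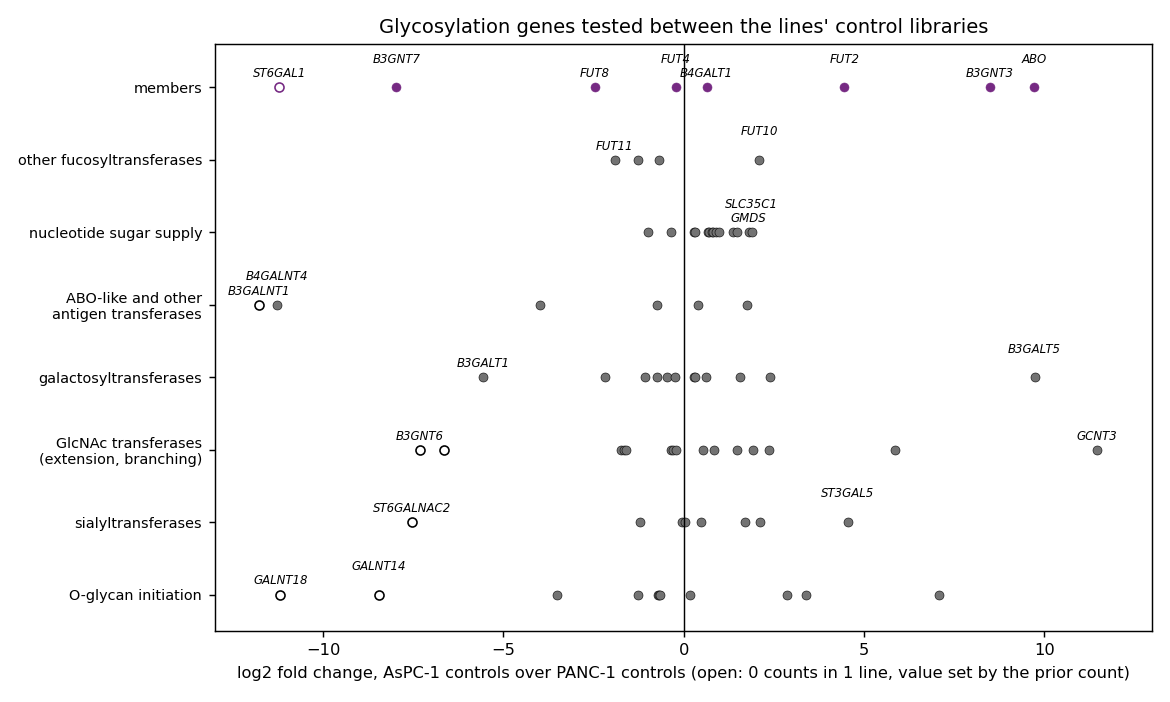
Log2 fold change of AsPC-1 controls over PANC-1 controls for every tested member (top row) and for the tested genes of 7 pathway lists, 1 point per gene, open where a line had 0 counts. Members range from ST6GAL1, at 0 in AsPC-1, through FUT4 near 0 to B3GNT3 at 8.48 and ABO at 9.71.

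The second comparison set MYEOV siRNA libraries against controls in AsPC-1. All 5 members that were tested and not picked for their response passed the threshold, FUT8 and B3GNT3 higher and FUT2, FUT4 and B4GALT1 lower. The background there was 32.9% of 14304 genes called by edgeR (16.6% higher, 16.3% lower). The median log2 fold change of these 5 was -0.28, the value of B4GALT1, against -0.0024 over all genes tested. The 5 values spread from -0.75 (FUT4) to 0.55 (FUT8), so the median does not describe a common shift. FUT1, FUT3, B3GNT7 and ST6GAL1 did not pass the filter. Of the 7 ductal markers 4 were higher (KRT7, KRT18, EPCAM and CDH1), 1 was lower (KRT19) and 2 were not called, with EPCAM at 1.29-fold and KRT19 at 89.8% of control (edgeR adjusted p = 1.82e-08 and 5.92e-05), and their part in the members' changes was not tested.

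B3GNT3 had 223, 232 and 224 CPM in AsPC-1 siRNA libraries, against 168 and 169 CPM in AsPC-1 control libraries. Each siRNA library lay above both controls, a rise of 1.33-fold (edgeR adjusted p = 5.71e-09; log2 fold change 0.42, SE 0.04). B4GALT1 had 127, 132 and 126 CPM in AsPC-1 siRNA libraries and 155 and 152 CPM in AsPC-1 control libraries. It fell without overlap to 82.6% of control (edgeR adjusted p = 1.13e-05; log2 fold change -0.28, SE 0.04). The pair of extension enzymes thus moved in opposite directions. B3GNT7, near 0 in AsPC-1, had 6, 9 and 5 counts in siRNA libraries and 6 and 8 counts in control libraries.

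FUT4 had the lowest siRNA level relative to control of the members tested in AsPC-1. It had 6.52, 7.72 and 8.43 CPM in siRNA libraries, against 11.6 and 13.7 CPM in control libraries. The groups did not overlap, and the level was 59.4% of control (edgeR adjusted p = 0.000105; log2 fold change -0.75, SE 0.14). Its exons share 683 bases with PIWIL4 on the same strand, and PIWIL4 had 8 to 32 counts across all libraries. FUT2 had 9.36, 8.21 and 11.98 CPM in AsPC-1 siRNA libraries and 12.4 and 14.95 CPM in AsPC-1 control libraries. Its highest siRNA library came close to its lowest control, and the fall to 71.6% of control passed the test (edgeR adjusted p = 0.00839; log2 fold change -0.48, SE 0.14). That call was lost without control replicate 2 (edgeR adjusted p = 0.185) and without siRNA replicate 2 (edgeR adjusted p = 0.0651).

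FUT8 had 11.7, 12.2 and 11.9 CPM in AsPC-1 siRNA libraries and 8.19 and 7.88 CPM in AsPC-1 control libraries. All siRNA libraries lay above both controls, a rise of 1.47-fold (edgeR adjusted p = 0.00106; log2 fold change 0.55, SE 0.12). FUT8-AS1, on the opposite strand, had 0 to 11 counts per library, and B4GALT1-AS1 had 1 to 30. Whether counting used strand is not known, so reads of a gene and its antisense partner cannot be told apart. ABO, described without a test, had 16.6, 17.1 and 14.04 CPM in AsPC-1 siRNA libraries, against 27.1 and 24.4 CPM in AsPC-1 control libraries. Its siRNA libraries all lay below the controls, at 61.0% of their level (log2 fold change -0.71, SE 0.10). ABO and FUT2, which act one after the other in A and B antigen synthesis, were thus both lower in AsPC-1 siRNA libraries, and FUT2 alone of them carries a test.

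**Figure D3:**
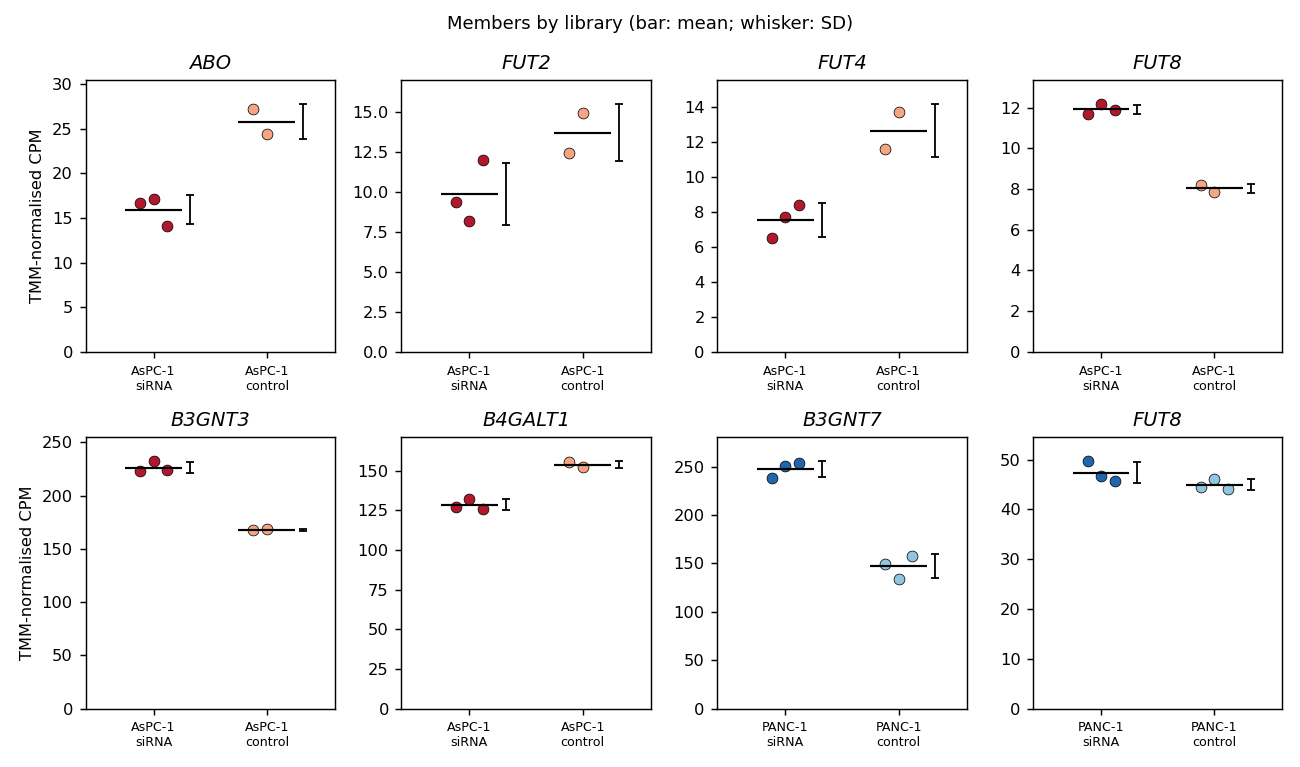
TMM-normalised CPM per library from 0 on the vertical axes, with the group mean as a line and the SD as a whisker, siRNA at the left of each panel. In the AsPC-1 panels the siRNA and control libraries do not overlap, and in PANC-1 those of B3GNT7 do not, while those of FUT8 do. The share of all genes without overlap was not counted, and ABO and B3GNT7 were picked for their responses.

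The third comparison, in PANC-1, called 9.08% of 14929 genes with edgeR (4.16% higher, 4.92% lower), and 0 of the 5 tested members other than B3GNT7. None of these had an unadjusted p under 0.05, DESeq2 called 0 of the 4 to which it gave an adjusted p (FUT2 had none), and 0 were called without PANC-1 control replicate 2. FUT8 had 49.7, 46.8 and 45.7 CPM in PANC-1 siRNA libraries and 44.5, 46.2 and 44.2 CPM in PANC-1 control libraries, groups that overlapped (edgeR adjusted p = 0.528; log2 fold change 0.08, SE 0.06). B4GALT1 had 104, 102 and 106 CPM in PANC-1 siRNA libraries and 99.1, 103 and 99.6 CPM in PANC-1 control libraries, also overlapping (edgeR adjusted p = 0.66; log2 fold change 0.05, SE 0.05). FUT4 differed by -0.11 on the log2 scale (edgeR adjusted p = 0.539; SE 0.10) and ST6GAL1 by -0.02 (edgeR adjusted p = 0.895; SE 0.08). FUT2, with 28 counts in all PANC-1 controls, had a wide error (0.28, SE 0.41; edgeR adjusted p = 0.743).

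B3GNT7 was the member with a large difference in PANC-1, and was picked for it. It had 238, 251 and 253 CPM in PANC-1 siRNA libraries, against 150, 134 and 158 CPM in PANC-1 control libraries. Every siRNA library lay above every control, at 1.68 times the control level (log2 fold change 0.75, SE 0.06), or 0.68 on the log2 scale without control replicate 2. Of the 7 ductal markers, CDH1 was higher in PANC-1 siRNA libraries, KRT8 and KRT18 were lower and 4 were not called. The 5 fibroblast markers summed to 41.9 to 43.5 CPM with siRNA and 30.2 to 37.7 CPM in controls, nearly all of it COL1A1 (1.26-fold; edgeR adjusted p = 0.0193). PDGFRB stood at 56.7% of control and was not called (edgeR adjusted p = 0.166), DCN was at 0, and COL1A2 and PDGFRA were too low to be tested. The part of these markers in the B3GNT7 difference was not tested. ABO was not tested in PANC-1, where it had 5, 5 and 1 counts in siRNA libraries and 0, 0 and 1 counts in control libraries. These sum to 11 counts against 1, at a level far below that of AsPC-1. The siRNA replicate 3 had the same single count as control replicate 3, so no ratio is given. B3GNT3 had 6, 11 and 6 counts in PANC-1 siRNA libraries and 7, 6 and 8 counts in control libraries, FUT1 had 7, 1 and 4 against 3, 1 and 1, and FUT3 had 0, 3 and 0 against 0, 1 and 2. All 3 genes overlapped between the groups and did not pass the filter.

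The difference between the lines was tested as an interaction over all 11 libraries, AsPC-1 response minus PANC-1 response. With edgeR 4.36% of 16680 genes were called (2.28% higher, 2.07% lower), and of the 6 members tested and not picked these were FUT4, FUT8 and B4GALT1. FUT4 fell more in AsPC-1 than in PANC-1 (log2 difference -0.62, SE 0.17; edgeR adjusted p = 0.0365). FUT8 rose more in AsPC-1 (0.49, SE 0.12; edgeR adjusted p = 0.0271), and B4GALT1 fell more there (-0.31, SE 0.07; edgeR adjusted p = 0.0103). Without AsPC-1 control replicate 1 all 3 calls were lost (edgeR adjusted p = 0.0516, 0.118 and 0.0818 for FUT4, FUT8 and B4GALT1), and likewise without control replicate 2 (0.228, 0.144 and 0.0528). FUT4 also lost its call with DESeq2 (adjusted p = 0.0576) and without 5 other libraries (edgeR adjusted p = 0.0507 to 0.115), and FUT8 with DESeq2 (adjusted p = 0.0726) and without 4 other libraries (edgeR adjusted p = 0.0512 to 0.0774). FUT2 (-0.75, SE 0.44; edgeR adjusted p = 0.423) and B3GNT3 (0.25, SE 0.36; edgeR adjusted p = 0.858) were not called, and both had few counts in PANC-1. ST6GAL1, at 0 in AsPC-1, gives no difference that can be read.

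The genes whose levels followed ABO most closely over the 11 libraries, by Pearson's r of log2(CPM + 0.5) among 13064 genes, were KIAA1522 (0.999), CDC42BPB (0.998) and PLCD3 (0.998). For B3GNT7 they were COL1A1, GRIK2 and HSPB8 (0.999 each). The libraries form a cluster per line and share their depth and treatment groups, so these values describe mainly the difference between lines.

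Around the members, 85 other glycosylation genes were counted on 7 lists, drawn up with earlier results known. In AsPC-1, 62 were tested, and 13 were higher and 14 lower in siRNA libraries, 43.5% against the background of 32.9%, with a median log2 fold change of -0.03. In PANC-1, 66 were tested, with 3 higher and 4 lower, 10.6% against 9.08% (median 0.0041), and 5 higher and 4 lower without PANC-1 control replicate 2. The counts were 1 higher and 3 lower when either of the PANC-1 siRNA replicates 1 and 2 was left out. Between the controls 36 of 70 were higher and 28 lower in AsPC-1, 91.4% against 76.4%. Some of these genes passed the filter only through the line where they were high. The interaction was called for 4 of 71, 1 higher and 3 lower, 5.63% against 4.36%.

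On the list of GDP-fucose and nucleotide sugar supply, which feeds the fucosyltransferases, 2 of 14 were higher and 4 lower in AsPC-1 siRNA libraries. Over all genes tested there, 16.6% were higher and 16.3% lower. In PANC-1 none of 14 was called, against 9.08% of all genes. GMDS and GFUS, the enzymes that make GDP-fucose from GDP-mannose in successive steps, rose to 134% and 138% of control in AsPC-1 (log2 fold change 0.42, SE 0.07, and 0.46, SE 0.05; edgeR adjusted p = 6.91e-05 and 2.22e-08). SLC35C1, the Golgi GDP-fucose transporter, fell to 81.7% of control (-0.29, SE 0.05; edgeR adjusted p = 0.000101). GFUS had 107.2, 107.4 and 106.7 CPM in AsPC-1 siRNA libraries, against 76.8 and 77.0 CPM in AsPC-1 control libraries. In PANC-1 its groups overlapped (43.5 to 47.4 CPM with siRNA and 42.0 to 48.8 CPM in controls). Between the controls, 12 of the 14 genes were higher in AsPC-1 and 2 lower, against 36.1% and 40.3% of all genes. Those higher included SLC35C1 at 3.69-fold and GMDS at 3.49-fold (edgeR adjusted p = 2.76e-11 and 8.64e-10).

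Of the 8 other fucosyltransferases, FUT5, FUT6, FUT7 and FUT9 were too low to be tested in either line. FUT11 was higher in AsPC-1 siRNA libraries (edgeR adjusted p = 0.00624; log2 fold change 0.50, SE 0.14), a call lost without 3 of the libraries in turn (edgeR adjusted p = 0.0816 without control replicate 1, 0.0511 without control replicate 2, 0.0668 without siRNA replicate 2). None of the 4 tested was called in PANC-1, against 9.08% of all genes. Among the antigen transferases, 2 of 3 tested were lower in AsPC-1, against 16.3% of all genes. A4GALT, which makes the P1 and Pk antigens, fell to 62.4% of control (edgeR adjusted p = 0.000153; log2 fold change -0.68, SE 0.13). The other, B4GALNT1 of ganglioside synthesis (-0.54, SE 0.21; edgeR adjusted p = 0.0492), lost its call in 10 of 11 alternatives.

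The galactosyltransferase B3GALT5, which makes the type of chain that Lewis a and CA19-9 need, followed B3GNT3 in its line restriction. Its AsPC-1 controls held 6573 counts and its PANC-1 controls 14, an 860-fold ratio (95% interval 512 to 1570, from counting error only). It fell to 77.2% of control in AsPC-1 siRNA libraries (edgeR adjusted p = 9.57e-08; log2 fold change -0.37, SE 0.04). GCNT3, a mucin branching enzyme, had 6626 counts in AsPC-1 controls and 4 in PANC-1 controls, and fell to 80.8% of control in AsPC-1 (-0.31, SE 0.04; edgeR adjusted p = 1.11e-06). On the opposite side stood genes at 0 in the AsPC-1 controls: B3GALNT1 was at least 259-fold, GALNT18 at least 172-fold, GALNT14 at least 25.7-fold, ST6GALNAC2 at least 13.7-fold and B3GNT6 at least 11.6-fold lower in AsPC-1, by the same floor of 3 counts over the group.

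Of the 57 pathway genes tested in both lines, 6 were called in both (10.5%), 4 lower and 2 higher, and 0 in opposite directions. Over all 12893 genes tested in both lines, 915 were called in both (7.1%), 512 lower, 359 higher and 44 in opposite directions. Those lower were B4GALT5 and ST3GAL5, which start and sialylate the lactose core of glycolipids, B3GNT5, which extends it to lacto-series chains, and GCNT2, which branches linear i antigen into I. B3GNT5 had 22.4, 23.5 and 23.96 CPM in AsPC-1 siRNA libraries, against 52.1 and 51.9 CPM in AsPC-1 control libraries (edgeR adjusted p = 1.16e-12; log2 fold change -1.17, SE 0.07). In PANC-1 it had 38.9, 35.7 and 40.6 CPM with siRNA and 55.1, 69.0 and 58.0 CPM in controls (-0.66, SE 0.09; edgeR adjusted p = 0.000297). No siRNA library reached a control of its line. GCNT2 fell to 46.7% of control in AsPC-1 and 58.3% in PANC-1 (edgeR adjusted p = 4.21e-08 and 3.64e-06), B4GALT5 to 54.0% and 71.8% (2.04e-15 and 0.000132), and ST3GAL5 to 49.5% and 69.1% (9.01e-16 and 0.0456). The PANC-1 call of ST3GAL5 was lost with DESeq2 (adjusted p = 0.0611) and without PANC-1 control replicate 3, siRNA replicate 1 or siRNA replicate 2 (edgeR adjusted p = 0.158, 0.22 and 0.116). MGAT4B, an N-glycan branching enzyme, rose in both lines (log2 fold change 0.40, SE 0.03, in AsPC-1 and 0.32, SE 0.05, in PANC-1; edgeR adjusted p = 3.24e-10 and 0.00161). GALNT1, which starts mucin-type O-glycans, rose in AsPC-1 (0.39, SE 0.04; edgeR adjusted p = 2.35e-08) and in PANC-1 (0.23, SE 0.06; edgeR adjusted p = 0.0293), where the call was lost in 6 of 13 alternatives.

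**Figure D4:**
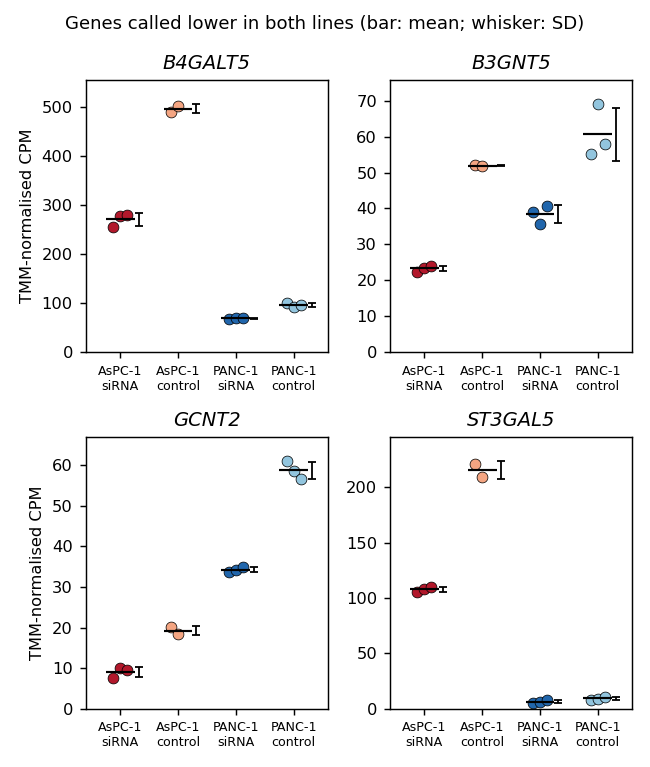
TMM-normalised CPM per library of B4GALT5, B3GNT5, GCNT2 and ST3GAL5, with the group mean as a line and the SD as a whisker, siRNA left of control in each line. The siRNA libraries of each gene lie below all control libraries of the same line.

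A 7-base word, CTCATGT, had been singled out by earlier results of these data as frequent in the 3′ untranslated regions (UTRs) of genes that fell, so its occurrence among genes that fell is no independent support. The longest annotated 3′ UTR of each member was read on the transcript strand in GENCODE 29. Of the 10 members, tested or not, 0 carried the word. Among tested genes, 13.7% of 11965 carried it in AsPC-1 and 13.8% of 12537 in PANC-1. The members tested numbered 6 in each line, too few to set 0 carriers apart from those shares. The core of the word, TCATGT, is contained in every copy of it. This core occurred 3 times each in FUT4 and B4GALT1, both lower in AsPC-1, and in no other member. The core occurred in 40.9% of the genes tested in AsPC-1, and 3 or more copies in 8.02%. The UTRs of FUT4 (4172 bases) and B4GALT1 (2817 bases) were the longest of the members, and longer UTRs have more room for a match. ST6GAL1, next in length (2750 bases), held no copy. How many of all genes with 3 or more copies were lower was not counted. Among pathway genes with 3 or more copies, B4GALT5, GCNT2, ST3GAL5 and B3GALT5 were lower in AsPC-1 siRNA libraries. MGAT4A, with 3 copies, was higher at 146.5% of control, and POFUT1, SLC35A3, B4GALT4 and GALNT5 were not called. The FUT4 and B4GALT1 sites are shown as the nearest matches to the 7-base word in members that fell, with the core in capitals.
FUT4, site 1: attatttattTCATGTctttactgga
FUT4, site 2: cctatgattgTCATGTcctcctttaa
FUT4, site 3: cagaggagttTCATGTaaagagcatg
B4GALT1, site 1: accttctcatTCATGTcaagtatgtg
B4GALT1, site 2: cgcgaagttgTCATGTgccgtgccct
B4GALT1, site 3: atgacggcttTCATGTcccagagacc

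FUT2, the other member that fell in AsPC-1, and ABO held neither word. All 4 pathway genes lower in both lines held 1 copy of the 7-base word, which was itself singled out among genes that fell. How many of all 512 genes lower in both lines carried it was not counted. Each copy is shown here in capitals with 10 bases on each side.
B4GALT5: acattatttaCTCATGTgtttgtacat
B3GNT5: agttcaagttCTCATGTaatgccacat
GCNT2: ctggatgtttCTCATGTagaacaagaa
ST3GAL5: tgaagtgcagCTCATGTttttaacttt

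Of 13 pathway genes with the word tested in AsPC-1, 6 were lower and 0 higher in siRNA libraries, and of 49 without it 8 were lower and 13 higher. In PANC-1, 4 of 14 with the word were lower and 0 higher, and of 52 without it 0 were lower and 3 higher. Over all tested genes with a 3′ UTR, 34.9% of carriers and 15% of the others were lower in AsPC-1, and 18.1% and 3.47% in PANC-1. FUT10, the pathway gene with 2 copies of the word, was not called in either line (edgeR adjusted p = 0.489 in AsPC-1 and 0.885 in PANC-1). C1GALT1 and GALNT5 also carried the word and were not called in either line (edgeR adjusted p = 0.147 and 0.895 in AsPC-1, 0.867 and 0.826 in PANC-1). A match of letters is a description, and no binding was measured here.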

How the data were processed

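RNA was measured in 11 libraries, sequenced as paired reads of 150 bases per the labels' protocols. The authors deposited whole-number counts per gene without normalization, 1 table per library. Per the submitters' processing notes, HISAT2, HTSeq and the build hg19 were used, with no versions; the strand setting was not given in the sources used here. All 58735 identifiers matched GENCODE 29 (GRCh38), from which names, exon lengths and 3′ UTRs were taken, and no coordinate came from the tables, which hold 0 rows without a gene name. Promoters came from RefSeq.

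The members and lists were chosen with earlier results of these data known. Groups came from the sample titles. With edgeR 4.0.16 (R 4.3.3), a fit per comparison used the libraries compared (filterByExpr, TMM, glmQLFit, glmQLFTest, two-sided, Benjamini-Hochberg over all genes, threshold 0.05), and the interaction on all 11. The SE is the absolute log2 fold change divided by the square root of F. The fits were tested on simulated counts. All members were named, with the 2 largest calls of each list per comparison by absolute fold change. MGAT4B, SLC35C1, B3GALT5 and GCNT3 in the siRNA comparisons, FUT10, C1GALT1 and GALNT5 were named with their values in view. The pathway genes with 3 or more copies of TCATGT were named for that number. The alternatives comprised DESeq2 1.42.0, RLE or upper-quartile scaling, no filter or one at 5 CPM, a joint fit of all groups, a replicate block and the omission of each library. Intervals and floors cover counting error only. Python 3.11.15, pandas 2.3.3 and matplotlib 3.10.9 were used for sequences and figures.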

Additional observations from a re-analysis of the deposited data

Results flagged for a closer look

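For 3 of 6 members tested and 4 of 71 other glycosylation genes (5.63%, against 4.36% of all genes) the response to MYEOV siRNA differed between AsPC-1 and PANC-1 by the edgeR interaction test at an adjusted p under 0.05, given here as the AsPC-1 response minus the PANC-1 response on the log2 scale. FUT4 (-0.62), FUT8 (0.49) and B4GALT1 (-0.31) are described above with the libraries that decide their calls. GFUS differed by 0.47 (SE 0.09; edgeR adjusted p = 0.00299), and its call was lost in the fit with the replicate block (0.0579) alone of 17 alternatives. B4GALT5 differed by -0.40 (SE 0.07; edgeR adjusted p = 0.00188) and was called in all 17. A4GALT differed by -0.66 (SE 0.17; edgeR adjusted p = 0.027), a call lost in 8 of 17 alternatives, among them DESeq2 (adjusted p = 0.0576) and the fits without either AsPC-1 control (edgeR adjusted p = 0.0958 and 0.112). B3GNT5 differed by -0.50 (SE 0.12; edgeR adjusted p = 0.0184), a call lost in 5 of 17, among them the fits without AsPC-1 control replicate 1 (0.0917), control replicate 2 (0.079) and siRNA replicate 1 (0.0556).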

How the results depend on the processing

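No alternative turned the direction of a call. RLE and upper-quartile scaling, both filters, DESeq2 and, where run, 1 fit over all groups kept each count of called genes within 1.5 times of that reported. Leaving out each library in turn gave 3164 to 4393 calls in AsPC-1, 538 to 1712 in PANC-1, 11096 to 12587 between the controls and 305 to 1056 for the interaction. The PANC-1 count was lowest without siRNA replicate 1 (538), and was 876 without siRNA replicate 2 and 863 without siRNA replicate 3. For the interaction, omitting AsPC-1 control replicate 1 gave 305, control replicate 2 gave 315 and PANC-1 siRNA replicate 1 gave 475. Leaving out an AsPC-1 control leaves 1 library, assumed to vary like the others.

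The replicate numbers of the titles did not pair the libraries: deviations of same-numbered libraries correlated at -0.037 and 0.0098 in AsPC-1 and at -0.0092, -0.40 and -0.11 in PANC-1. Differently numbered PANC-1 libraries correlated at -0.386 to 0.386, and what such libraries share was not tested. In AsPC-1 the values of the 2 controls mirror each other by construction. With the replicate number as a block the calls numbered 4260 in AsPC-1, 628 in PANC-1, 11881 between the controls and 241 for the interaction. The block ended the interaction calls of FUT4, FUT8 and B4GALT1 (edgeR adjusted p = 0.0684, 0.134 and 0.121) and of GFUS, A4GALT and B3GNT5 (0.0579, 0.122 and 0.119), and the PANC-1 call of GALNT1 (0.0696). GALNT10 (log2 fold change -0.47 in AsPC-1) lost its call (edgeR adjusted p = 0.0741) when AsPC-1 control replicate 2 was omitted. Low counts limit what can be read of FUT1 and FUT3 in both lines, ABO, B3GNT3 and FUT2 in PANC-1 and B3GNT7 and ST6GAL1 in AsPC-1.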

Other observations

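Further genes of the lists moved in AsPC-1 siRNA libraries. B4GALT6, a lactosylceramide synthase like B4GALT5, rose to 155% of control (edgeR adjusted p = 2.75e-05; log2 fold change 0.63, SE 0.10), opposite in direction to B4GALT5. ST6GALNAC4, which adds sialic acid to O-glycan cores, rose to 133% of control (edgeR adjusted p = 8.22e-05), and GALNT10 fell to 72.4% (edgeR adjusted p = 0.00326). Between the controls, ST3GAL5 was 23.5-fold higher in AsPC-1 (edgeR adjusted p = 8.06e-16) and FUT11 stood at 26.6% of its PANC-1 level (edgeR adjusted p = 1.94e-10).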
